A study of Mus musculus with 6 samples.

Results

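Keratins and desmosome genes are the working parts of epithelial sheets, and their RNA was followed here in cultured mouse adult fibroblasts (MAFs) in a control and a radiation-induced senescent state. The family was every protein-coding gene of the count table whose symbol was a numbered keratin (Krt, leaving out Krtap and Krtcap), desmoglein (Dsg), desmocollin (Dsc) or plakophilin (Pkp), together with Dsp, Jup and Perp. It held 67 of 43346 genes, of which 51 were keratins and 16 were desmosome genes. The family was chosen by gene symbol, but it was selected on values too, since the fold changes of some of its genes between control and senescent cells in these same libraries were known when it was put forward. The differences are therefore described without p-values for the members. Whether a member was called at an adjusted p threshold is given as a description only, and counts of members called different are not evidence about the family.

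The cells were primary MAFs of wild-type genotype, grown from digested ears of adult female C57BL6/J mice at 3% oxygen and used between passages 3 and 8. Ear tissue holds skin and cartilage besides fibroblasts, and the methods name no sorting step. The sources used here do not say whether libraries of a group came from separate animals or cultures, so the spread between libraries may be technical. Control cells (3 libraries) were sham irradiated, whereas senescent cells (3 libraries) received 20 Gy of X-rays and stayed in culture for 21 days. All 6 samples were treated with 100 nM dexamethasone for 2 h, which sets their circadian clocks to a common phase, and were collected 12 h later.

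Libraries held 50288454 to 82229553 counts assigned to genes. Levels are given as CPM, the counts of a gene relative to the total of its library, after TMM scaling, and as CPM per kb of gene length where genes are compared with each other. Senescent replicate 3 stood apart from replicates 1 and 2. Its squared deviations from them were 18.5 and 24.6 times sampling noise at the median gene, against 2.24 between senescent replicates 1 and 2 and 1.77 to 5.33 among the controls. The labelled cell type was checked against 16 fibroblast genes, all of which were measured. Their summed level was 69515 to 71816 CPM in control libraries, against 49803 to 55173 CPM in senescent libraries. Fn1 made up most of both sums, with means of 45643 CPM (control) and 43835 CPM (senescent). Of the 16 genes 5 were called higher and 8 lower. Senescent levels were 0.172-fold those of controls for Col1a1, 0.273-fold for Col1a2, 0.249-fold for Col3a1 and 0.0883-fold for Col6a1, whereas Dcn was 11.3-fold higher. Chondrocyte genes were also present. The 10 measured, led by the cartilage collagen Col2a1 (2716 CPM in control cells, against 168 CPM in senescent cells), summed to 5206 to 5758 CPM in control and 410 to 488 CPM in senescent libraries, and all 10 were called lower. The part of such cells in the values that follow was not tested. Of markers of epithelial cells, Epcam was under the detection filter and the basal keratin Krt14 had 2 to 12 counts per library. The transcription factor Trp63 had a mean of 13.1 ± 0.345 CPM in control cells, against 4.17 ± 0.521 CPM in senescent cells (SD, n = 3 each). Sfn was not called, with means of 7.65 ± 0.879 CPM (control) and 10.2 ± 3.23 CPM (senescent). Other epithelial markers went the other way. Cdh1 rose from 0.477 ± 0.108 CPM in control to 1.91 ± 0.165 CPM in senescent cells. Ivl had 0 counts in all control libraries and was at 13.96 ± 0.559 CPM in senescent cells, through which alone it passed the filter. Krt5 and Krt10 were not called, and Krt1, Lor and Flg were under the filter.

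Keratins are intermediate filament proteins that assemble only as pairs of an acidic type I and a basic type II chain. Simple epithelia use Krt8 with Krt18 or Krt19, the basal layer of the epidermis uses Krt5 with Krt14 or Krt15, and upper layers use Krt1 with Krt10, while resting fibroblasts rely on vimentin filaments. Desmosomes fasten these filaments to the cell border. Their desmogleins and desmocollins reach across to the next cell, their tails bind the armadillo proteins plakoglobin (Jup) and the plakophilins, and desmoplakin (Dsp) links that plaque to keratin.

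Of the 67 genes, 23 passed the filter on low counts and were tested, 13 keratins and 10 desmosome genes. With edgeR's quasi-likelihood test across 17589 genes and an adjusted p under 0.05, 10 of the 23 were called higher and 6 lower in senescent cells, against 36.2% higher, 34.1% lower and 70.3% in either direction over all genes tested. Among the 13 keratins 5 were called higher and 4 lower, and among the 10 desmosome genes 5 were called higher and 2 lower. A change of more than 2-fold was called higher for 9 members and lower for 5, against 17.7% and 12.3% of all genes tested. The lowest level of one group lay above the highest of the other for 16 of the 23 members, 10 higher and 6 lower in senescent cells, against 75.4% of all genes tested, 38.4% higher and 37.0% lower. The median log2 fold change was 0.58 for the 13 keratins and 0.86 for the 10 desmosome genes, beside 0.01 over all genes tested. Nothing about the family is read from these shares, because the contrast was known when the family was proposed and because a gene that passed the filter only through the group where it was high had to differ. Without senescent replicate 3, 13 members were called higher and 6 lower, beside 39.7% and 37.4% of all genes tested. In bulk RNA, fewer cells of a type and less RNA per cell cannot be told apart.

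**Figure D1:**
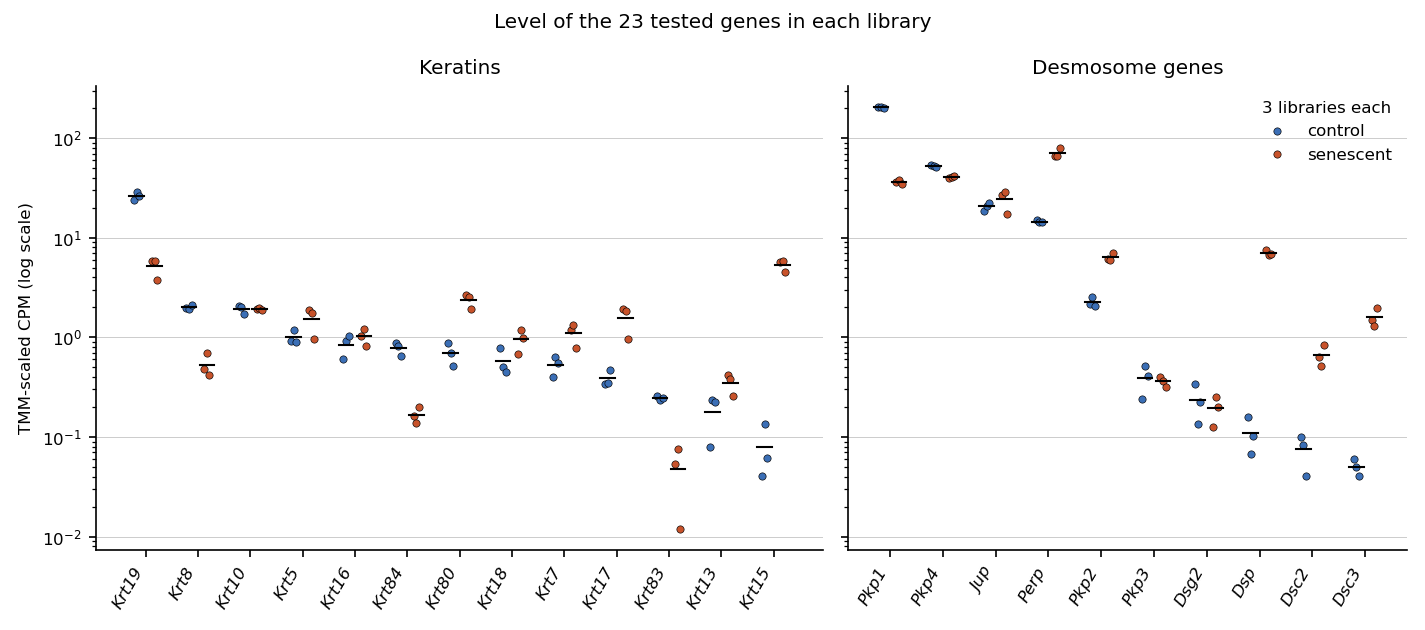
Level of each tested keratin and desmosome gene in the 3 control and 3 senescent libraries, as TMM-scaled CPM on a log scale, with points for libraries and short lines for group means. Pkp1 is the highest gene in every control library and Krt19 the highest keratin there, while Dsp and Krt15 lie between 0.0401 and 0.160 CPM in the control libraries and between 4.49 and 7.56 CPM in the senescent ones.

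Krt19, a small type I keratin of simple and ductal epithelia, was the most abundant keratin of the control cells. It was at 24.0, 29.1 and 26.2 CPM in control replicates 1 to 3 and at 5.88, 5.89 and 3.78 CPM in senescent replicates 1 to 3. The groups did not overlap, and Krt19 fell by 2.36 ± 0.18 on the log2 scale (fold change ± SE), a level 5.10-fold higher in control cells. Krt19 lies on the minus strand at chr11:100140810-100148665 (mm10).

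Krt8, the type II partner in simple epithelia, was at 1.96, 1.92 and 2.10 CPM in control libraries and 0.487, 0.694 and 0.414 CPM in senescent libraries. Every control library was above every senescent one, and Krt8 fell by 1.90 ± 0.20 on the log2 scale. Its usual type I partner Krt18, whose gene is its neighbour on chromosome 15, was at 0.782, 0.502 and 0.449 CPM in control libraries and 0.685, 1.19 and 0.995 CPM in senescent libraries. The groups overlapped, since control replicate 1 was above senescent replicate 1. Krt18 was called higher, with a log2 fold change of 0.75 ± 0.28, and the call was lost when control replicate 2, control replicate 3 or senescent replicate 2 was left out. The ratio of Krt18 to Krt8 per kb was 0.375 ± 0.123 in control and 2.37 ± 0.656 in senescent cells (SD, n = 3 each), so Krt8 RNA exceeded Krt18 RNA in every control library and Krt18 RNA exceeded Krt8 RNA in every senescent library. Of the 100-base windows along the Krt8 transcript, 16.9% occur in other annotated transcripts, most often in the pseudogene Krt8-ps. How reads with several matches were counted is not given in the sources used here.

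Krt7, a type II keratin of ducts and glands, rose from 0.401, 0.636 and 0.552 CPM in control libraries to 1.19, 1.34 and 0.782 CPM in senescent libraries, a log2 fold change of 1.04 ± 0.27. Krt20, an intestinal and urothelial keratin, had 0 counts in each control library and 7, 13 and 16 counts in senescent replicates 1 to 3. Taking 3 counts per control library as the limit that a count of 0 allows, its level was at least 2.80-fold higher in senescent cells. The 5 simple epithelial keratins summed to 29.5 ± 2.50 CPM in control cells, against 7.93 ± 1.60 CPM in senescent cells.

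Among 8 keratins of the basal layer and of wounded or stressed epidermis, 4 were tested (Krt5, Krt15, Krt16 and Krt17), and Krt15 passed the filter only through the senescent libraries. Krt15, a type I keratin of basal keratinocytes and of the hair follicle bulge, had 2, 8 and 3 counts in control libraries and 316, 460 and 379 counts in senescent libraries. These counts correspond to 0.0401, 0.134 and 0.0613 CPM in control and 5.70, 5.80 and 4.49 CPM in senescent libraries. All 3 senescent libraries were far above all 3 control libraries, and Krt15 rose by 5.99 ± 0.28 on the log2 scale. The pooled ratio was 64.3, with a 95% exact interval of 37.4 to 121 that covers counting error only. Without control replicate 2 the log2 fold change was 6.66. Krt15 lies at chr11:100131758-100135928 (mm10), 4882 bases from Krt19.

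Krt17, induced in wounded epidermis, was at 0.341, 0.351 and 0.470 CPM in control libraries and 1.91, 1.85 and 0.971 CPM in senescent libraries. The groups did not overlap, although senescent replicate 3 was well under the other 2, and Krt17 rose by 2.01 ± 0.32 on the log2 scale. Krt5, the type II keratin of the basal layer, was not called, with 0.922, 1.19 and 0.899 CPM in control libraries and 1.88, 1.74 and 0.959 CPM in senescent libraries. Its log2 fold change was 0.58 ± 0.27, and it was called higher, at 0.84, without senescent replicate 3. Krt16, another wound keratin, was not called either. Its level was 0.601, 0.920 and 1.02 CPM in control libraries and 1.03, 1.22 and 0.817 CPM in senescent libraries, and 24.3% of its 100-base windows occur in other transcripts, most often in Gm11597. Krt14, the main type I partner of Krt5 in epidermis, was under the filter with 2, 9 and 2 counts in control and 3, 12 and 5 counts in senescent libraries. The senescent to control ratio of Krt14 was 1.11, with an interval of 0.527 to 2.44. Krt6a had 1, 0 and 1 counts in control and 9, 8 and 5 counts in senescent libraries. The Krt6a ratio was 7.96 (1.96 to 69.8), and it shares 34.0% of its windows with other transcripts, chiefly Krt6b, which had 1 to 6 counts per library. Krt75 had 3 to 6 counts per library.

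Of 10 keratins of the suprabasal and cornifying layers, 2 were tested. Krt80, a type II keratin that appears as epithelial cells differentiate, was at 0.882, 0.703 and 0.511 CPM in control libraries and 2.65, 2.55 and 1.93 CPM in senescent libraries. The groups did not overlap, and Krt80 rose by 1.76 ± 0.22 on the log2 scale. Krt10, the type I keratin of the upper epidermis, was at 2.08, 2.04 and 1.72 CPM in control libraries and 1.95, 1.99 and 1.88 CPM in senescent libraries. These ranges overlapped, and the log2 fold change of -0.01 ± 0.12 was not called. The gene Gm11940 overlaps 6.91% of the exon bases of Krt10 on the opposite strand. Krt1, the type II partner of Krt10, had 0 to 4 counts per library. Krt24 had 0 counts in the controls and 5, 17 and 13 counts in senescent libraries, at least 2.67-fold higher. Krt23 had 0 to 2 counts in control and 5 to 12 counts in senescent libraries, a ratio of 8.68 (2.16 to 75.8). Krt78 had more counts in control cells, with a senescent to control ratio of 0.181 (0.044 to 0.561). Krt2, Krt9, Krt77 and Krt79 had at most 4 counts in any library.

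Hair keratins were scarce, and the 2 that were tested, Krt83 and Krt84, stood higher in control cells, the group that carried them past the filter. Krt84, a type II keratin of hair, nail and tongue, was at 0.882, 0.820 and 0.654 CPM in control libraries and 0.162, 0.139 and 0.201 CPM in senescent libraries, and fell by 2.21 ± 0.24 on the log2 scale. Krt83, a type II keratin of the hair cortex, fell by 2.38 ± 0.49, and by 3.00 without senescent replicate 2. Some of its windows also occur in other transcripts. The other 12 hair shaft keratins (Krt31, Krt32, Krt33a, Krt33b, Krt34, Krt35, Krt36, Krt39, Krt40, Krt81, Krt82 and Krt86) had at most 1 count in a control library. Among them Krt39 had 2, 12 and 2 counts in senescent libraries, at least 1.23-fold higher. None of the 8 inner root sheath keratins was tested. Krt28 had 0 counts in the controls and 4, 7 and 5 counts in senescent libraries, at least 1.28-fold higher, and Krt71 had a ratio of 2.44 (1.08 to 6.22). Krt25, Krt26, Krt27, Krt72, Krt73 and Krt74 had at most 2 counts in any library. Of the mucosal and corneal keratins, Krt13 was tested and not called (0.92 ± 0.39 on the log2 scale), although its senescent libraries, at 0.261 to 0.415 CPM, were all above its control libraries, at 0.0802 to 0.234 CPM. Krt4 and Krt76 had 0 counts in the controls and 2 to 10 counts in senescent libraries, and Krt12 had 0 counts throughout. Krt222 and Krt42, left unclassed, had at most 3 counts.

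Counting error limits what can be said of the 44 genes that were not tested, whose highest count was 9 in a control library and 17 in a senescent library. Over the whole family, 30 genes had 0 counts in all control libraries, and 24 of these had a count in at least 1 senescent library. By contrast, 7 had 0 counts in all senescent libraries, and 6 (Krt12, Krt33b, Krt34, Krt35, Krt74 and Krt81) had 0 counts in all 6 libraries. Of the 22032 protein-coding genes, 5522 had 0 counts in all control libraries, 2933 in all senescent libraries and 2830 in all 6. These numbers were not brought to equal depth, and only 3 of the 24 genes had more than 3 counts in every senescent library. Thinned to the smallest library, 41.1% to 43.8% of the 51 keratins had a count in the control libraries and 60.4% to 75.6% in the senescent libraries. Over all 22032 protein-coding genes these shares were 70.5% to 70.8% and 80.4%, so more protein-coding genes in general were detected in senescent cells.

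Summed keratin RNA was lower in senescent cells, an order that turned around once Krt19 was left out. All 51 keratins summed to 33.6, 39.3 and 35.5 CPM in control libraries and to 25.5, 26.3 and 18.6 CPM in senescent libraries, with no overlap. Without Krt19, the sum was 9.73 ± 0.452 CPM in control cells, against 18.3 ± 3.01 CPM in senescent cells. Without Krt19 and Krt15 it was 9.65 ± 0.411 and 12.98 ± 2.28 CPM. Per kb, Krt19 made up 74.2 ± 1.53% of keratin RNA in control cells and 22.1 ± 1.56% in senescent cells. Krt15 made up 0.225 ± 0.124% in control cells and 24.2 ± 1.10% in senescent cells. In senescent replicates 1 and 2 the Krt15 and Krt19 shares (23.8% against 23.4%, and 23.3% against 22.5%) were closer than the counting error of these genes, while in replicate 3 Krt15 was ahead (25.4% against 20.4%). Type I chains exceeded type II chains per kb in all 6 libraries, by 5.75-fold to 6.78-fold in control and by 3.26-fold to 3.62-fold in senescent cells.

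**Figure D2:**
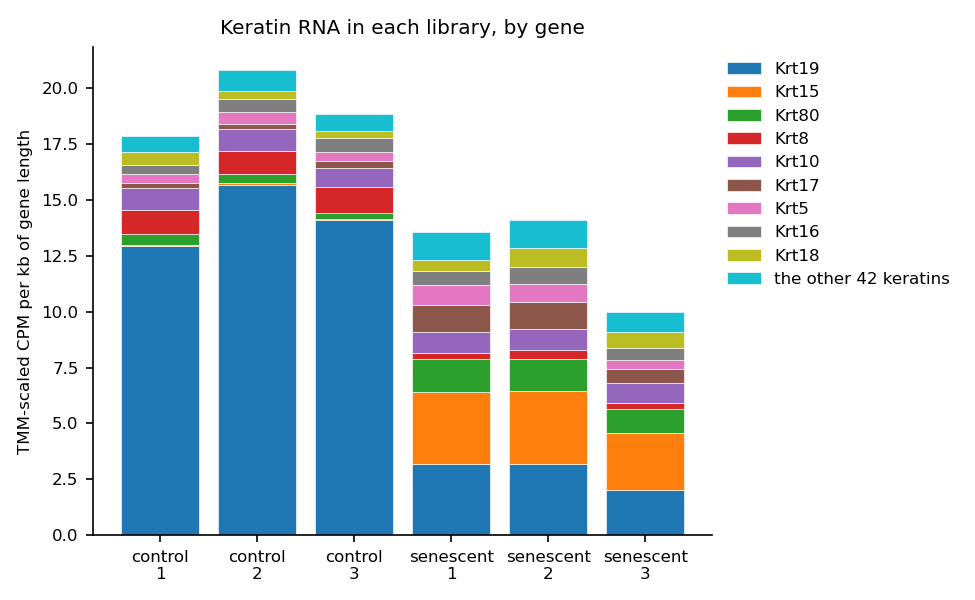
Keratin RNA of each library as stacked bars of TMM-scaled CPM per kb of gene length, with the most abundant keratins in separate colours and the remaining 42 together. Krt19 fills 72.4% to 75.3% of each control bar and 20.4% to 23.4% of each senescent bar, where Krt15 takes up 23.3% to 25.4%.

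Senescent replicate 3 held less keratin RNA than its group. It was the lowest senescent library for 11 of the 13 tested keratins and the highest for 1, at a median of 0.702 times the mean of replicates 1 and 2. For the 10 tested desmosome genes it was the lowest for 3 and the highest for 5, at a median of 1.05 times, and over all genes tested it was the lowest for 42.05% and the highest for 45.1%. Its type I to type II ratio and its Krt15 and Krt19 shares per kb were nevertheless on the senescent side of every control library.

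Keratin genes lie in 2 clusters, one of type I genes on chromosome 11 (27 members, chr11:99232761-100269871) and one of the type II genes and Krt18 on chromosome 15 (24 members, chr15:101349571-102032026, mm10). On chromosome 11, 2 of 6 tested genes were called higher and 1 lower, and on chromosome 15, 3 of 7 were called higher and 3 lower, beside 36.2% and 34.1% of all genes tested. Nothing is read from these small counts. Krt15 and Krt19 are adjacent and moved in opposite directions, as did Krt8 and Krt18, whose genes are 23874 bases apart and are transcribed from opposite strands.

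**Figure D3:**
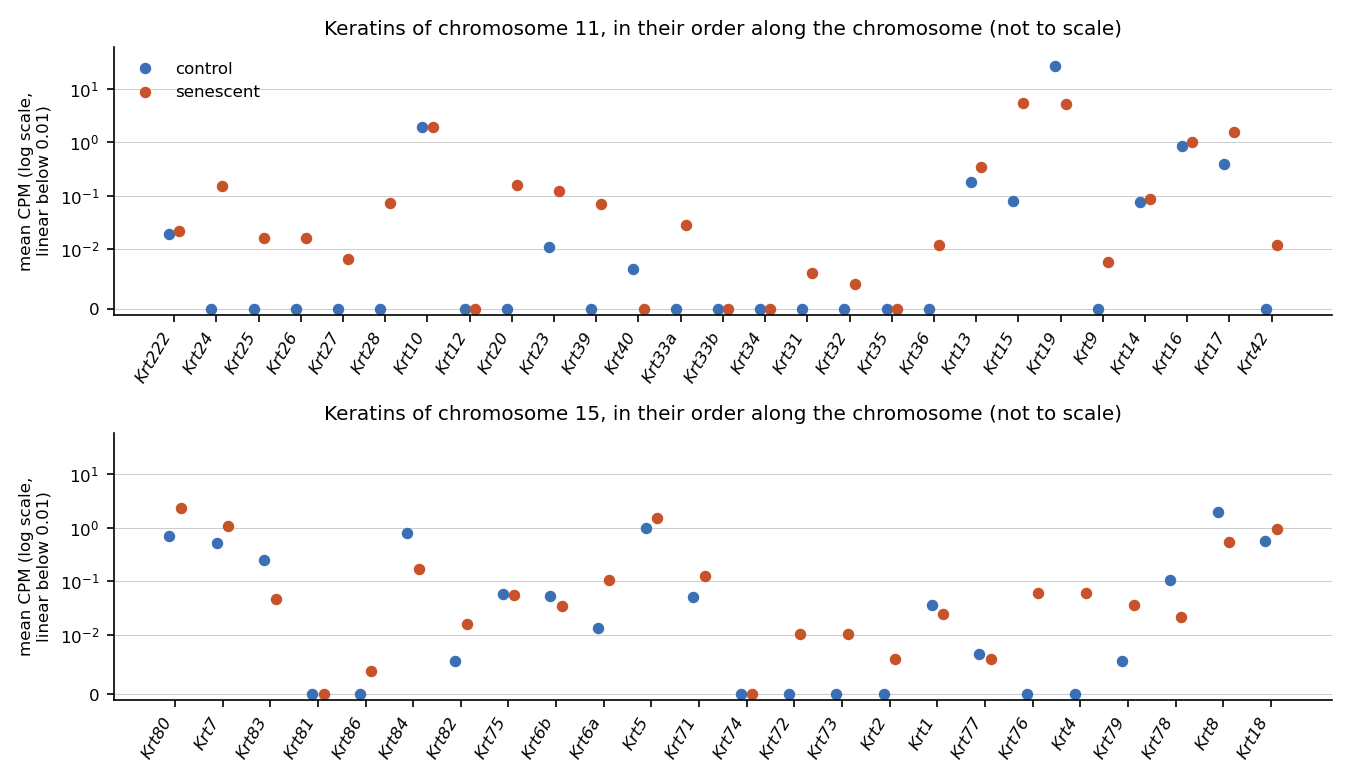
Mean TMM-scaled CPM of every keratin in control and senescent cells, in gene order along chromosomes 11 and 15, on an axis that is logarithmic above 0.01 and linear below. Adjacent genes differ in direction, as at Krt15 (0.0784 CPM in control, 5.33 CPM in senescent cells) beside Krt19 (26.4 and 5.18 CPM), and many genes have a control mean of 0.

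Plakophilin 1 (Pkp1), an armadillo protein that strengthens desmosomes in the upper epidermis, was the most abundant member in control cells by CPM and by CPM per kb. It was at 206, 204 and 202 CPM in control libraries and at 36.5, 37.7 and 34.8 CPM in senescent libraries. The libraries of each group were close together, and Pkp1 fell by 2.49 ± 0.06 on the log2 scale, a level 5.61-fold higher in control cells. Pkp1 lies at chr1:135871395-135919207 (mm10). Pkp4, which also sits at adherens junctions, was at 53.5, 52.6 and 51.1 CPM in control libraries and 39.6, 40.6 and 41.5 CPM in senescent libraries. It fell by 0.37 ± 0.06 on the log2 scale, again without overlap.

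Pkp2, the plakophilin of heart and simple epithelia, went the other way. It was at 2.18, 2.53 and 2.08 CPM in control libraries and 6.11, 5.98 and 7.08 CPM in senescent libraries, and rose by 1.49 ± 0.12 on the log2 scale. Pkp3 was not called, with 0.241 to 0.519 CPM in control and 0.320 to 0.397 CPM in senescent libraries. Pkp1 made up 80.7 ± 0.250% of plakophilin RNA per kb in control cells and 46.3 ± 1.65% in senescent cells. Jup, which binds both desmosomal and classical cadherins, was at 18.8, 20.8 and 22.5 CPM in control libraries and 26.7, 28.9 and 17.4 CPM in senescent libraries. Senescent replicate 3 was the lowest of all 6 libraries and the other 2 senescent libraries were the highest. The log2 fold change of Jup was 0.24 ± 0.18 and was not called, but it was called at 0.44 without that library.

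Dsp, the plaque protein that carries the filaments, had 8, 4 and 5 counts in control libraries and 419, 538 and 584 counts in senescent libraries. Like Krt15, Dsp passed the filter only through the senescent libraries, so it had to differ once tested. Its levels were 0.160, 0.0669 and 0.102 CPM in control libraries and 7.56, 6.79 and 6.92 CPM in senescent libraries. All senescent libraries were far above the controls, and Dsp rose by 6.02 ± 0.20 on the log2 scale, with a pooled ratio of 65.6 and an exact interval of 40.8 to 113. Dsp lies at chr13:38151328-38198577 (mm10).

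Among 9 desmosomal cadherins 3 were tested, of which Dsc2 and Dsc3 passed the filter only through the senescent libraries. Dsc3, the desmocollin of basal keratinocytes, had 3, 3 and 2 counts in control libraries and 83, 104 and 165 counts in senescent libraries. It rose by 4.93 ± 0.32 on the log2 scale, with a pooled ratio of 31.8 (16.0 to 74.3). Dsc2, the widespread desmocollin, had 5, 5 and 2 counts in control and 35, 41 and 71 counts in senescent libraries, and rose by 3.11 ± 0.37, with a pooled ratio of 8.87 (4.92 to 17.5). Senescent replicate 3 was the highest library for both, opposite to its place for most keratins. Dsg2, the desmoglein of simple epithelia, was not called, at 0.134 to 0.341 CPM in control and 0.126 to 0.252 CPM in senescent libraries. Epidermal Dsc1, Dsg1a, Dsg1b, Dsg1c, Dsg3 and Dsg4 had 0 or 1 counts in control libraries and at most 6 in senescent libraries. Even in senescent cells the 9 cadherins together came to 2.58 ± 0.512 CPM, from 0.365 ± 0.137 CPM in control cells.

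Perp, a tetraspan membrane protein of desmosomes that is a target of p53 and p63, was at 15.1, 14.3 and 14.3 CPM in control libraries and 66.7, 66.9 and 79.8 CPM in senescent libraries. The groups did not overlap, and Perp rose by 2.29 ± 0.09 on the log2 scale, 4.88-fold. Per kb it was the most abundant member in senescent cells, at 37.4 CPM, above Pkp1 at 7.23 CPM. The 16 desmosome genes summed to 295 ± 1.70 CPM in control cells, against 189 ± 2.60 CPM in senescent cells, of which the 5 armadillo proteins made up 280 ± 1.32 and 108 ± 6.31 CPM. Most of this gap was absent per kb of gene length, where the control sum was 61.3 ± 0.501 and the senescent sum 58.1 ± 3.09. The per-kb sums overlapped, since senescent replicate 3 (61.6) exceeded control replicates 2 (61.3) and 3 (60.8).

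**Figure D4:**
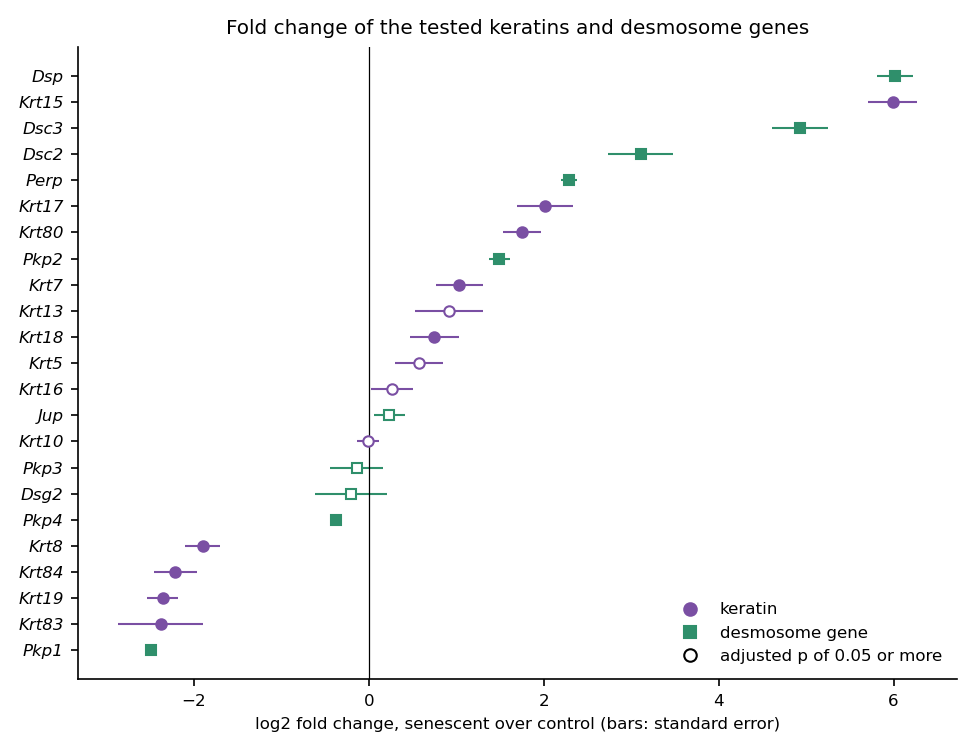
Log2 fold change of the 23 tested genes, senescent over control, with bars for the standard error, circles for keratins, squares for desmosome genes and open symbols for genes with an adjusted p of 0.05 or more. Values run from -2.49 (Pkp1) to 6.02 (Dsp), with Krt15 at 5.99, Dsc3 at 4.93 and Krt19 at -2.36.

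Sequence upstream of the start site was compared in RefSeq windows (GRCm38.p6), which matched 38 of the 67 members. These were 35 keratins and 3 desmosome genes (Dsp, Jup and Pkp4), with no window for Krt15, Krt19, Pkp1 or Perp among others. The 250 bases before the start are shown for 4 genes, namely the neighbours Krt8 and Krt18, called in opposite directions, Krt10, which was not called, and Dsp, which with Krt15 had the largest fitted fold changes of the tested members, within their SE of each other. Capitals mark a TATA box, a CCAAT box or a GC box as spelled out after the sequences, and Krt8 and Krt18 held none of these. The windows are chr15:102004343-102004592 on the minus strand for Krt8, chr15:102027966-102028215 on the plus strand for Krt18, chr11:99389365-99389614 on the minus strand for Krt10, and chr13:38151044-38151293 on the plus strand for Dsp.
Krt8: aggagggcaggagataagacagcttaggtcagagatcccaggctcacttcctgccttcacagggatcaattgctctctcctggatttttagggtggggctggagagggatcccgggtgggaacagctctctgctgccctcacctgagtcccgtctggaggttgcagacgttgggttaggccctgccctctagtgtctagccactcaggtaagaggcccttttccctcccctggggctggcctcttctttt
Krt18: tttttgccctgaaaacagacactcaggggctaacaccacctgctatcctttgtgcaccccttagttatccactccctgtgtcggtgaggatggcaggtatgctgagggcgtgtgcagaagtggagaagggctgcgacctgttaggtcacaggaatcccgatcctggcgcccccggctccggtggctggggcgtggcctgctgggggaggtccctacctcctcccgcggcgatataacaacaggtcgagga
Krt10: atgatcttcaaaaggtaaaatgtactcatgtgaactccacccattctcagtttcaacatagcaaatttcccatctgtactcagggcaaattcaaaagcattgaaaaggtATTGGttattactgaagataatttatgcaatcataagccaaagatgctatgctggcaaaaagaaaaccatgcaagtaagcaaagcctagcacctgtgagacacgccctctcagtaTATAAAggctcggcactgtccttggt
Dsp: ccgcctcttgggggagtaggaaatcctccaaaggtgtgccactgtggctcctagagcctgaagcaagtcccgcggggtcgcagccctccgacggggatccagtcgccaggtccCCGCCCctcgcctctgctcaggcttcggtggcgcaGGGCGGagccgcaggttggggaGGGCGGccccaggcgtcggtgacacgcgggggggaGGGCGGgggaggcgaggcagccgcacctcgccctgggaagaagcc

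The Krt10 window had TATAAA at -26 and ATTGG, the reverse complement of CCAAT, at -141, with 39.6% G and C. The Dsp window had GGGCGG at -102, -80 and -45 and its reverse complement CCGCCC at -137, with 72.4% G and C and 22 CpG sites. Krt8 had 3 and Krt18 had 12 CpG sites. Each motif was searched on both strands, and the shares refer to 40 windows of members and 32817 windows in all. TATAAA was held by 42.5% of member windows and 12.4% of all windows, CCAAT by 40.0% and 33.8%, and GGGCGG by 12.5% and 32.7%. These shares mostly describe keratins. All members with TATAAA were keratins, whereas GGGCGG was held by Dsp, Jup and Pkp4 and, among keratins, by Krt7 and Krt75 only. The circadian E-box CACGTG was found in 7.5% of member windows (Krt23, Krt75 and Krt78) and 6.02% of all. The AP-1 letters TGACTCA or TGAGTCA were found in 2.5% of member windows (Krt13) and 4.46% of all. These matches describe letters and not bound sites, and the windows are short.

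Other genes of epithelial cells, chosen as lists with results of these data already known, also moved in both directions. Counts of called genes in these and the later lists stand beside 36.2% higher and 34.1% lower of all genes tested. Nothing is read from these counts. A tested gene whose control counts were too low for the filter, at 0 or at a few counts, passed only through the senescent libraries. The direction of such a gene was fixed, in these and in the later lists. Of 31 genes of keratinocyte differentiation 18 were tested, 12 were called higher and 4 lower. Cdsn (corneodesmosin), an adhesive protein of the cornified desmosome, fell from 71.0 ± 4.05 to 7.98 ± 1.70 CPM, and Sbsn (suprabasin) fell from 69.4 ± 2.73 to 24.5 ± 2.29 CPM. Spink5, a skin protease inhibitor, was not called, at 35.7 and 36.3 CPM. Sprr1a, a cornified envelope precursor, rose from 0.0248 ± 0.0218 to 14.9 ± 1.04 CPM, and Ivl (involucrin) was at 0 counts in all control libraries and reached 13.96 ± 0.559 CPM after irradiation, a difference of at least 244-fold. The summed level of the list was 181 to 188 CPM in control and 118 to 124 CPM in senescent libraries. Of its 31 genes 11 had 0 counts in all control libraries, beside 5522 of 22032 protein-coding genes. Among the 11, Flg2 and Hrnr had 0 counts in the senescent libraries too, and Flg had 1 count in senescent replicate 3 only. Its median log2 fold change was 2.92 with the 4 tested genes at 0 in control set to their lower bound, and 4.23 with their fitted values. Besides these 4, Sprr1a, Sprr3, Tchh, Ly6d, Casp14, Klk7 and Abca12 passed the filter only through the senescent libraries. Nothing is therefore read from this median.

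Of 21 epithelial transcription factors 15 were tested, 9 were called higher and 2 lower. Trp63, the p63 gene that maintains basal keratinocytes, fell from 13.1 ± 0.345 to 4.17 ± 0.521 CPM, and Ehf fell from 9.87 ± 0.476 to 1.24 ± 0.0916 CPM. Klf4, a regulator of the skin barrier, rose from 28.4 ± 1.29 to 82.4 ± 1.42 CPM, while Klf5 was not called. Grhl3, Tfap2c and Zfp750, singled out after their values were seen, were called higher and reached 1.48, 0.853 and 0.764 CPM. Their counts in control libraries were 0 to 1 (Grhl3), 0 (Tfap2c) and 3 to 8 (Zfp750). Each therefore passed the filter only through the senescent libraries, which fixed its direction. The list summed to 68.0 to 70.1 CPM in control and 110 to 115 CPM in senescent libraries. Of its 21 genes 5 were at 0 in all controls, beside the same 5522 of 22032 protein-coding genes.

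Of 25 genes of adherens and tight junctions 14 were tested, 9 were called higher and 3 lower. The catenin Ctnnb1 fell from 1242 ± 14.1 to 687 ± 5.23 CPM and Ctnnd1 from 454 ± 9.80 to 373 ± 19.1 CPM, whereas Ctnna1 rose from 356 ± 2.87 to 420 ± 8.88 CPM and Tjp1 was not called. Of the cadherins, Cdh3 (P-cadherin) fell from 24.3 ± 0.430 to 3.53 ± 0.173 CPM and Cdh1 (E-cadherin) rose from 0.477 ± 0.108 to 1.91 ± 0.165 CPM. The part that other cell types in the cultures played in the keratin and desmosome values was not tested.

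Partners that tie filaments to junctions and to the basement membrane were measured as well. Of the 7 plakins and partners measured 4 were called higher and none lower, with a median log2 fold change of 0.24. On the log2 scale, Dst (0.37 ± 0.05), Macf1 (0.31 ± 0.07) and Ctnna1 (0.24 ± 0.05) were called higher and Plec was not. Evpl (envoplakin) rose from 0.260 ± 0.0259 to 1.54 ± 0.496 CPM and Ppl (periplakin) was not called. Of 11 genes of hemidesmosomes and basement membrane, which anchor basal cells, 7 were called higher and 1 lower. Itga6 rose from 59.1 ± 2.46 to 107 ± 6.87 CPM and Cd151 from 128 ± 6.13 to 203 ± 22.3 CPM. Lamb3 was the gene called lower, at 26.5 ± 0.962 and 9.75 ± 1.93 CPM. Ivl, Flg, Flg2, Hrnr, Cdh3, Cdh1, Evpl, Ppl and Lamb3 are named beyond the most abundant genes of their lists and were singled out after their values were seen.

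**Figure D5:**
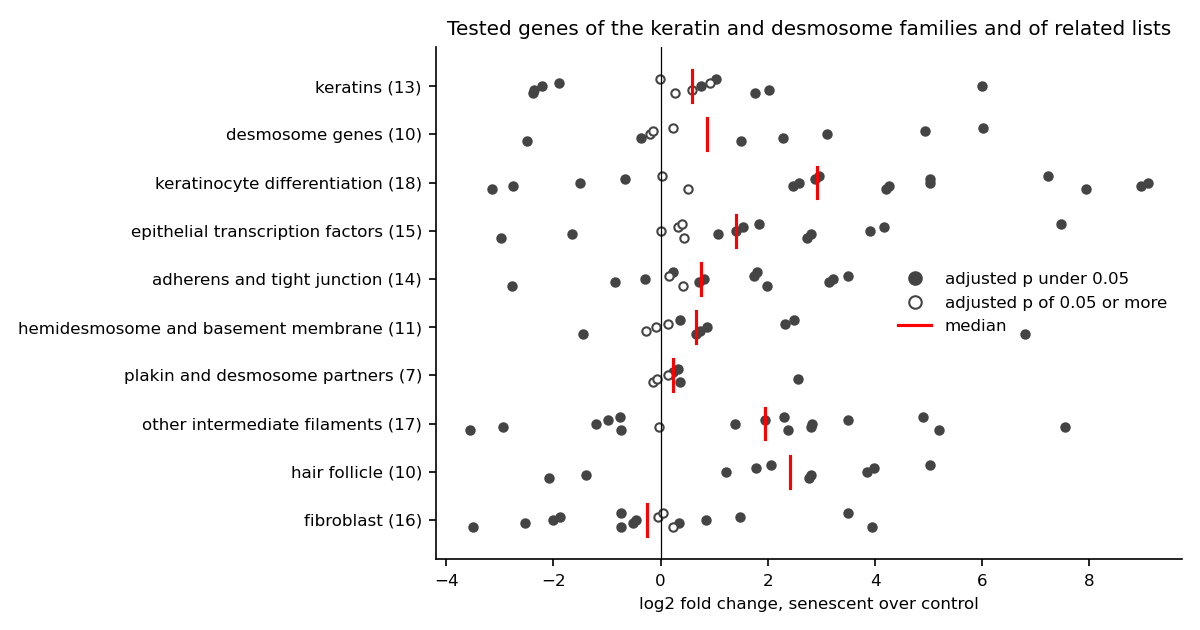
Log2 fold change, senescent over control, of the tested keratins, desmosome genes and genes of 8 related lists, with filled points for an adjusted p under 0.05, open points for the rest, red lines for medians, and genes at 0 in all controls drawn at their lower bound. Every list holds values on both sides of 0, with medians of 0.58 for keratins, 0.86 for desmosome genes, 2.92 for keratinocyte differentiation and -0.26 for fibroblast genes.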

How the data were processed

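Deposited gene counts of 6 libraries were used, made by the authors from stranded poly(A) RNA libraries (200 ng RNA, paired reads of 100 bases) with STAR alignment to mm10 and Subread counting in the MAPRSeq pipeline. Strand setting and the treatment of reads with several matches are not given in the sources used here. Total counts per library ranged from 50288454 to 82229553.

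Members and lists were chosen with earlier results of these data known. Counts were filtered with filterByExpr (minimum count 10), scaled by TMM and fitted on group by the quasi-likelihood method of edgeR (version 4.0.16 under R 4.3.3), with Benjamini-Hochberg adjustment over 17589 genes and a threshold of 0.05. Genes with a group mean of at least 1 CPM were named with all values, other tested members with a range, counts or fold, untested members with counts, and from the related lists up to 4 of the most abundant genes plus any singled out. Bounds take 3 counts per library as the limit of a count of 0. Intervals of pooled ratios are exact 95% binomial intervals for counting error only. Levels per kb use the deposited gene lengths, which sum all exons, so Krt7 (7055 bases) is divided by more than its longest coding transcript of 4094 bases. Shared 100-base windows and exon overlaps came from GENCODE vM21 for 66 members. Alternatives were RLE scaling, library size alone, 2 other filters, DESeq2 1.42.0, edgeR's exact test, a replicate block and leaving out each library.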

Additional observations from a re-analysis of the deposited data

How the results depend on the processing

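Of the 23 tested members, 10 kept their direction and their side of the threshold under all 13 alternatives, 6 (Dsp, Dsc2, Dsc3, Krt15, Krt83 and Krt84) did so wherever they were tested but could not be tested under the stricter filter, and 7 did not. With no filter beyond 1 count in total, 19 members were called higher, 18 of them by more than 2-fold, and the median log2 fold change was 1.74 over 61 members, beside 25.9% called higher and a median of 0.31 over 29776 genes. Requiring 10 or more counts in each of the 6 libraries left 15 members, of which 6 were called higher, 5 of them by more than 2-fold, and 3 were called lower by more than 2-fold. Under that filter 33.9% of 15205 genes were called higher and 34.8% lower. The member counts follow how many members enter. Krt10, never called, changed sign with RLE scaling (0.0133), library size alone (0.0709), the stricter filter (0.0416), DESeq2 (0.0132) and the replicate block (0.000413), and ranged from -0.0938 to 0.0382 with a library left out. Pkp3 ranged from -0.39 to 0.14 and Dsg2 from -0.51 to 0.17 with a library left out, neither called. Leaving out each library in turn gave 9 to 13 members called higher and 6 lower, beside 33.1% to 39.7% and 29.4% to 37.4% of all genes tested. By more than 2-fold, 8 to 10 members were called higher and 5 lower, and the median log2 fold change of members was 0.46 to 0.75. Summed keratin means were then 34.6 to 37.4 CPM in control and 22.1 to 25.9 CPM in senescent cells. Krt13 was called higher with library size alone (1.00), with the exact test (0.92) and without senescent replicate 3 (1.11). Replicate numbers were not taken to pair the libraries, since same-numbered libraries deviated with r of -0.15, 0.14 and -0.12 and control replicate 1 correlated best with senescent replicate 3 (0.26). With the replicate block 9 members were called higher and 6 lower, beside 33.9% and 32.2% of all genes tested. Under that block Krt18 was no longer called, and 11624 genes were called in place of 12365. Depth limits the 44 untested members, for which a difference was often not detectable.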

Other observations

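Filaments other than keratins also differed between control and senescent cells. Of 17 tested genes for other intermediate filament proteins and lamins, 10 were called higher and 6 lower by edgeR's quasi-likelihood test. The shares over all genes tested were 36.2% and 34.1%. Vim, the main filament of fibroblasts, fell from 4101 ± 170 to 2459 ± 204 CPM, and the nuclear lamins Lmna, Lmnb1 and Lmnb2 were called lower, with log2 fold changes of -0.76, -3.55 and -1.20. Nes, Sync and Synm, which occur in muscle and progenitor cells, rose by 2.80 ± 0.08, 2.82 ± 0.11 and 2.38 ± 0.19 on the log2 scale. The neurofilament genes Nefm and Nefl reached 2.72 and 1.71 CPM in senescent cells. Nefm had 0 to 2 counts in control libraries and Nefl had 0, so both passed the filter only through the senescent libraries. Nefl was at least 29.9-fold higher. Iffo2 rose from 33.4 ± 0.478 to 87.7 ± 3.00 CPM. The genes other than Vim, Lmna, Lmnb1 and Iffo2, the most abundant of the list, were singled out after their values were seen.

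Markers of further cell types had levels that moved with the groups, and their part in the keratin and desmosome values was not tested. Their counts of called genes stand beside the same 36.2% higher and 34.1% lower of all genes tested. Of 14 hair follicle genes 10 were tested, 8 were called higher and 2 lower, with a summed level of 207 to 232 CPM in control and 70.6 to 78.1 CPM in senescent libraries. Sox9, which is also in the chondrocyte list, made up 201 to 225 CPM and 47.2 to 55.3 CPM of these sums, and without it the list summed to 5.91 to 6.91 CPM in control and 22.8 to 23.8 CPM in senescent libraries. Macrophage genes summed to 8.72 to 9.34 CPM in control and 19.0 to 22.0 CPM in senescent libraries, with 6 of 7 called higher. Endothelial genes summed to 4.75 to 6.31 CPM and 9.88 to 9.96 CPM, with 5 called higher and 1 lower of 6. Melanocyte and Schwann cell genes summed to 72.2 to 75.9 CPM and 49.97 to 53.1 CPM, with 1 called higher and 4 lower of 6. Merkel cell genes, of which 3 were tested, had 2 called lower, and skeletal muscle genes, of which 4 were tested, had 1 called higher and 1 lower. Of 8 genes used to check for senescence, 4 were called higher and 4 lower. The cell cycle inhibitors Cdkn1a and Cdkn2a rose, Cdkn1a from 123 to 619 CPM and Cdkn2a from 1.20 to 4.496 CPM, and the proliferation genes Mki67 and Top2a fell from 589 to 9.60 CPM and from 517 to 13.998 CPM.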
